A study of Mus musculus with 4 samples.

Results

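The genes described are those of the cohesin ring, its loader and release factors, and the factor that stops it on DNA: Ctcf, Rad21, Smc3, Nipbl, Mau2, Wapl, Pds5a, Pds5b and Stag1. They were followed in H3K27ac HiChIP data of mouse embryonic stem cells, in which read pairs are counted between pairs of genomic intervals called anchors. A pair of anchors belongs to a gene when at least 1 of its anchors overlaps a transcription start site of that gene in GENCODE release M21 (GRCm38 assembly). By this rule 8 of the 9 genes had an anchor, and Rad21 had none. The 8 genes had 16 anchors and 1169 of the 1513030 pairs of anchors, with 16275 read-pair counts over 4 libraries.

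HiChIP ligates DNA ends that lie close together in fixed nuclei and then enriches the ligated fragments with an antibody, here against H3K27ac, a histone mark of active promoters and enhancers. A count therefore needs both a contact and the mark at 1 of its ends, and a bulk library cannot tell more mark from more frequent contact, or more cells from more contacts per cell. The B6 libraries came from C57BL/6J embryonic stem cell lines, B6 4-1 (replicate 1) and B6 5-1 (replicate 2), and the D2 libraries from DBA/2J lines, D2 2-9 (replicate 1) and D2 5-5 (replicate 2). The labels call them biological replicates, and each line gave 1 library, so line and library cannot be told apart.

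All 4 lines were grown in the same serum medium with LIF, 1 µM PD0325901 (a MEK inhibitor) and 3 µM CHIR99021 (a GSK3 inhibitor), and no line carries a stated transgene or deletion. Cells were fixed with 1% formaldehyde, chromatin was cut with DpnII, and 75 bp read pairs were sequenced. In the library names, D2 replicate 1 is marked 10cyc and the other 3 are marked 8cyc, with no meaning given in the labels.

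Cohesin is a ring that holds DNA and extrudes it into loops; SMC3 and RAD21 are parts of the ring and STAG1 is a subunit bound to it. NIPBL and MAU2 form the loader that puts cohesin on chromatin and drives extrusion, whereas WAPL, with PDS5A or PDS5B, releases it. CTCF binds a long GC-rich motif and halts the extruding ring, so that many loops end at CTCF sites. These proteins are made in nearly every dividing cell, and the contacts described here are those of the genes that encode them, not of the sites the proteins bind.

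Library totals in the table were 2908329 and 2800847 counts for B6 and 2767882 and 2944258 for D2, in replicate order, and each gene's counts were divided by these totals to give counts per 1000000 (CPM). Pairs of the 8 genes took 0.130% and 0.136% of the counts of the B6 libraries and 0.158% and 0.146% of those of the D2 libraries. Of all 20807 autosomal protein-coding genes, 13996 (67.3%) had an anchor over a start site. Among stem cell markers, 7 of 10 genes had an anchor and at least 20 counts, Pou5f1, Sox2 and Nanog among them, whereas Esrrb, Klf2 and Tfcp2l1 had none. Their summed level was 1767.0 and 1949.8 CPM in B6 and 2830.7 and 1833.4 CPM in D2. In this sum D2 replicate 1 stood above the other 3 libraries, with Nanog (980.5 CPM) and Tbx3 (682.1 CPM) its largest parts. Klf4 was lower in both D2 libraries, with 132.0 and 133.9 CPM in B6 and 130.4 and 95.1 CPM in D2. Of the 7 genes, Sox2 and Nanog passed the strain test described below as higher in D2, and 0 passed as lower. The shares over all genes tested were 3.49% and 9.76%. The 3 primitive endoderm markers (Gata6, Gata4, Sox17) summed to 41.4 to 47.4 CPM, and of the 4 fibroblast markers Thy1 alone had an anchor, at 3.61 to 7.56 CPM. The 2 mesoderm markers (T, Mixl1) summed to 33.4 and 41.1 CPM in B6 and 35.0 and 41.1 CPM in D2. The 2 neural markers (Pax6, Sox1) summed to 54.0 and 48.9 CPM in B6 and 67.9 and 64.5 CPM in D2. Sox1 was higher in both D2 libraries, with 29.2 and 30.0 CPM in B6 and 48.1 and 39.7 CPM in D2. Pax6 overlapped between strains, with 24.8 and 18.9 CPM in B6 and 19.9 and 24.8 CPM in D2. D2 replicate 1 was also the highest library for Ctcf, Smc3, Nipbl and Stag1 below, and the part of a feature of that library in those results was not tested; values without it are given with each.

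Ctcf was the 1 gene of the 8 whose total contacts passed the test between strains, an edgeR quasi-likelihood adjusted p under 0.05. Ctcf had 142.0 and 147.1 CPM in the B6 libraries and 235.6 and 180.7 CPM in the D2 libraries, a mean of 144.6 ± 3.60 against 208.1 ± 38.8 (SD, n = 2 each). Both D2 libraries lay above both B6 libraries, and D2 replicate 1 was the highest. The log2 fold change, D2 over B6, was 0.45 ± 0.13 (SE; adjusted p = 0.0133 in edgeR). Of all 13826 genes tested, 13.3% passed the same threshold in either direction and 3.49% passed it as higher in D2, so 1 call among 8 genes is near the background. The Ctcf call did not hold under DESeq2 (0.46, adjusted p = 0.0833). It was also lost when B6 replicate 1 (0.41, edgeR adjusted p = 0.219), B6 replicate 2 (0.49, 0.123) or D2 replicate 1 (0.27, 0.151) was left out, and over all alternatives its adjusted p ran from 3.64e-06 to 0.219.

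Across the 8 genes the median log2 fold change was 0.17, beside 0.01 for all genes tested. The libraries of the strains did not overlap for 7 of the 8 genes, with Nipbl the exception, and did not overlap for 56.4% of all genes tested. D2 was above B6 in 4 of these 7 genes (Ctcf, Smc3, Stag1 and Wapl) and below in Mau2 and Pds5b; for Pds5a, whose sign depends on the scaling, no direction is given. With 2 libraries a strain, a gap between the strains is a weak criterion, as the share over all genes shows.

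**Figure D1:**
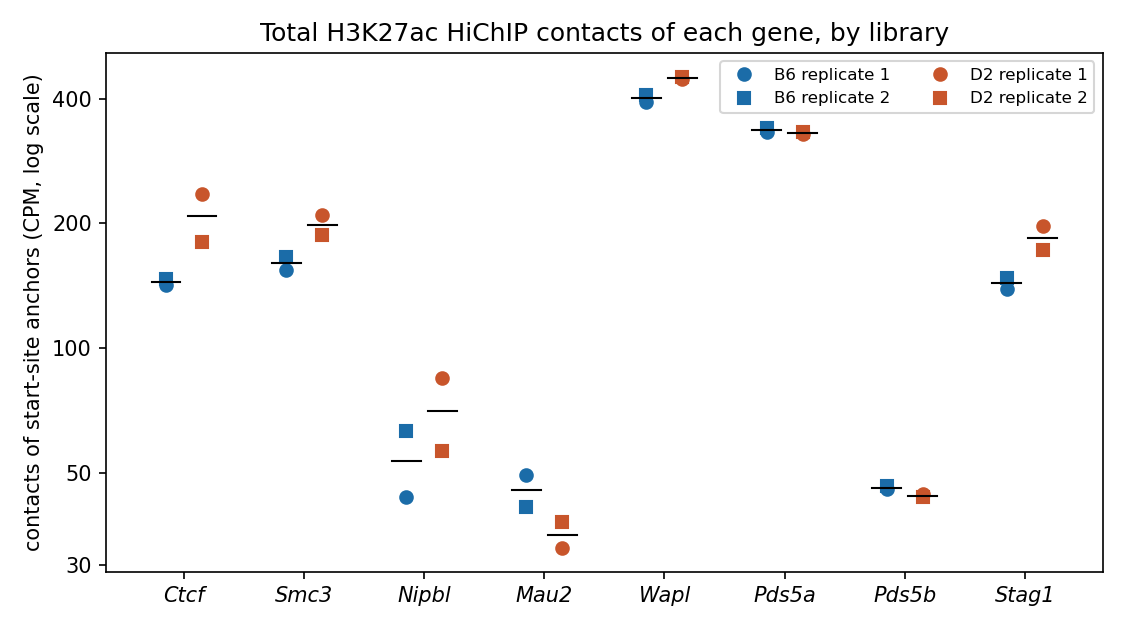
Total contacts of the start-site anchors of each gene in CPM (vertical axis, log scale), for 2 B6 libraries (blue) and 2 D2 libraries (orange); circles are replicate 1, squares replicate 2 and black lines the mean of the strain. Ctcf stands at 142.0 and 147.1 in B6 and 235.6 and 180.7 in D2, Nipbl is the gene whose strains overlap, and totals of different genes are not comparable because their anchors differ in length.

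Levels can be compared between genes only per length of anchor. Ctcf had the highest mean, 14.5 ± 3.55 CPM per kb of anchor (SD over 4 libraries), above 94.1% of the genes with an anchor, followed by Smc3 at 10.8 ± 1.46 and Mau2 at 7.98 ± 1.38. Wapl (5.47 ± 0.373), Pds5a (5.34 ± 0.0698), Nipbl (4.42 ± 1.23) and Stag1 (3.86 ± 0.617) followed, all below the median of all genes, 6.01 CPM per kb. Pds5b was lowest at 2.30 ± 0.0605 CPM per kb, above 13.1% of genes. In this order the ranges of the libraries of neighbouring genes overlapped except between Mau2 and Wapl and between Stag1 and Pds5b. A pair between anchors of the same gene counts once over the length of both, which lowers genes with several anchors. Taken singly, the anchors had 6.21, 8.35, 5.68 and 7.17 CPM per kb for Wapl, 6.63, 4.48 and 5.70 for Pds5a, and 4.13 and 5.36 for Stag1.

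**Figure D2:**
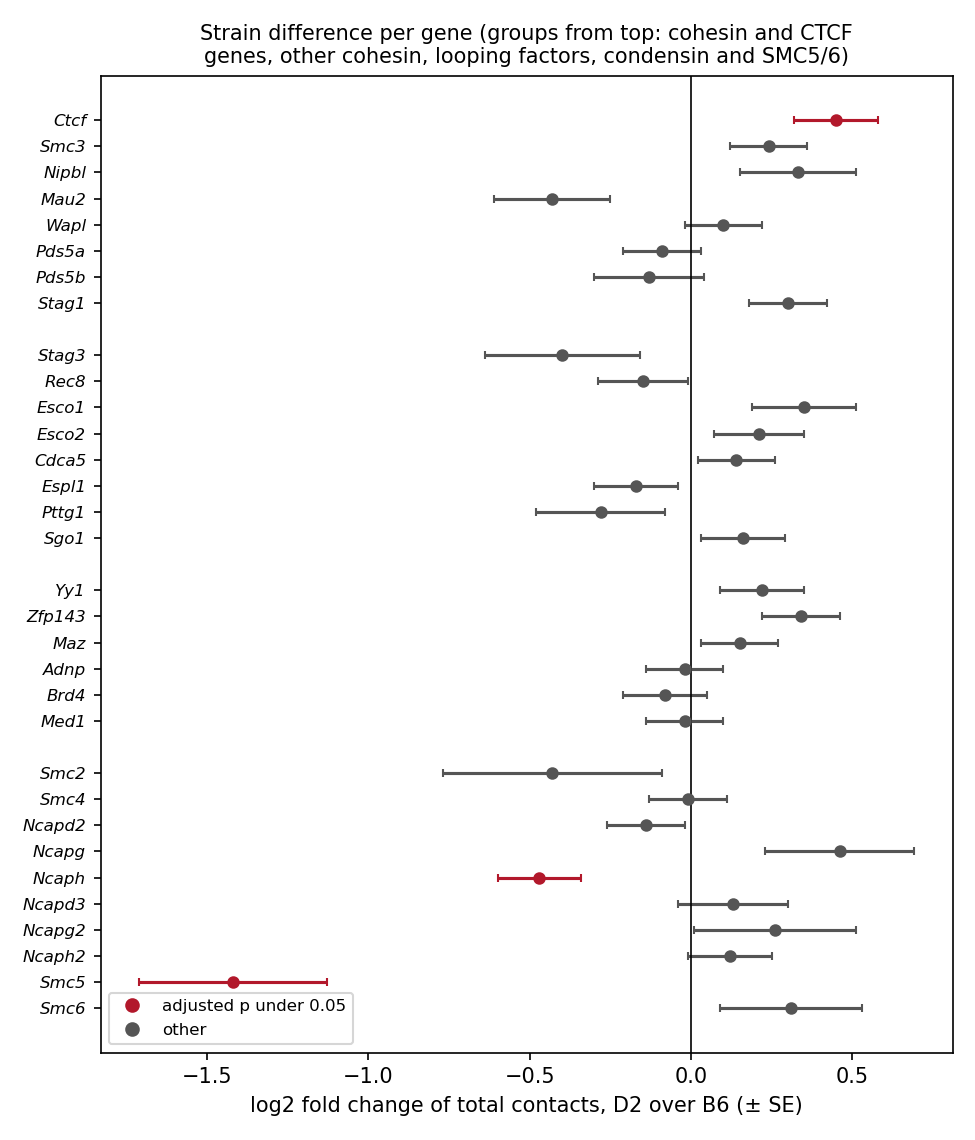
Log2 fold change of total contacts, D2 over B6, with its standard error, for the 8 genes and for 24 other genes of cohesin regulation, looping and condensin (horizontal axis, log2; red, edgeR adjusted p under 0.05). Ctcf at 0.45 lies to the right, and Ncaph at -0.47 and Smc5 at -1.42 lie to the left.

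Ctcf (ENSMUSG00000005698.15, chr8:105636568-105682922, plus strand, 46.4 kb) had a single anchor, chr8:105632121-105644259 (12.1 kb), which holds 4 of its 5 annotated start sites. The anchor also overlaps a start site of Agrp, a neuropeptide gene, so its counts belong to both genes. It took part in 131 pairs, with 2009 counts, and the 3 strongest held 36.6% of the counts. The annotated RefSeq start of Ctcf lies inside the anchor, and the 150 bases before it are shown because Ctcf is the gene that passed the test; no GENCODE exon overlaps them. Capitals mark the GC box GGGCGG, a site of Sp-family factors, found on either strand and printed as CCGCCC where it lies on the other strand. This box is in 28.9% of 31396 RefSeq promoter windows of the same length. Smc3, Wapl, Pds5a and the Mau2 start inside its anchor have 1 box each, Stag1 has 2 and Pds5b has 0. The box therefore does not set apart the genes higher in D2.
Ctcf promoter, GRCm38.p6 chr8:105636388-105636537, plus strand: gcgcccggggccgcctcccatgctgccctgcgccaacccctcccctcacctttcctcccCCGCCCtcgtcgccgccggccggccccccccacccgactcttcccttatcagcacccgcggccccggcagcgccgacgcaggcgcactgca

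The motif AGNGGGCGC, letters from within the core of the motif that CTCF binds, was searched on both strands; it shares the letters GGGCG with the GC box. It occurred 2 times in the 16 anchors, 0.00800 matches per kb, beside 0.0275 per kb in all anchors over a protein-coding start site and 0.0181 per kb in all 56562 anchors. The matches, shown with 10 bases on each side and the motif in capitals, lay in the anchors of Ctcf and Pds5b. In Ctcf the match was in an exon of the gene, 123 bp downstream of its first start site, and in Pds5b it was intergenic, 41 bp upstream of the first start site. A match is a description of letters and not a bound site, and 2.96% of RefSeq promoter windows of 300 bases hold one.
Ctcf match, GRCm38.p6 chr8:105636681-105636709, plus strand: gcggcggcggAGCGGGCGCcgcggggggt
Pds5b match, GRCm38.p6 chr5:150673688-150673716, plus strand: tgcggccggtAGGGGGCGCtgagaaccca

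The strongest partner of the Ctcf anchor was an anchor in the body of Ctcf itself, chr8:105645020-105663372, 16.0 kb away, with 83 and 87 counts in B6 and 149 and 102 in D2. Both D2 libraries were above both B6 libraries, with a log2 fold change of 0.50 ± 0.23 (SE; adjusted p = 0.348 in edgeR). On the other side, an anchor at Agrp and Ripor1 (chr8:105617254-105627549), 15.8 kb away, had 39 and 31 counts in B6 and 48 and 53 in D2, again without overlap. An anchor 227.6 kb away (chr8:105848123-105883516), over start sites of Cenpt (a kinetochore protein), Edc4 (mRNA decapping), Nutf2 (nuclear import) and Thap11 (a zinc finger factor of stem cells), had 25 and 36 counts in B6 and 48 and 35 in D2. There the strains overlapped. The longest Ctcf pair with at least 20 counts reached the body of Dus2, a tRNA-modifying enzyme, at 380.8 kb, with 3 and 8 counts in B6 and 4 and 5 in D2.

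The Ctcf pair with the smallest p, named after its value was seen, joined the anchor to the start sites of Acd (a telomere protein), Pard6a (cell polarity), Enkd1 and 4933405L10Rik, 67.2 kb away. It had 26 and 22 counts in B6 and 51 and 35 in D2, a log2 fold change of 0.78 ± 0.30 (SE; adjusted p = 0.211 in edgeR). Of the 18 Ctcf pairs with at least 20 counts, 16 had a fold change above 0 and 2 below, with a median of 0.50, and none passed the threshold. Split by distance, the D2 to B6 ratio of mean CPM was 1.45 under 50 kb, 1.51 from 50 to 200 kb and 1.27 from 200 to 500 kb, without overlap. At 500 kb or more Ctcf had 13.8 and 10.7 CPM in B6 and 28.5 and 12.9 CPM in D2: the strains overlapped, and D2 replicate 1 stood apart from the other 3 libraries. The other pairs within 500 kb of Ctcf, those not using its anchor, were also higher in both D2 libraries. They had 1456.2 and 1440.6 CPM in B6 and 1540.9 and 1676.1 CPM in D2. Their ratio was 1.11, below the 1.44 of Ctcf itself.

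No single pair of any of the 8 genes passed the threshold: edgeR called 0 of 162 pairs with at least 20 counts, beside 1.45% of all 108034 pairs tested. At an unadjusted edgeR p under 0.05 there were 19 of the 162 pairs (11.7%), 15 higher and 4 lower in D2, and the share over all pairs was also 11.7%. The split by direction over all pairs was not counted, and pairs of a gene share its anchors, so they are not separate results. DESeq2 called 0 of the 162 pairs as well, but it called only 0.0750% of all 108034 pairs, so 0 calls there say little. At an unadjusted DESeq2 p under 0.05 there were 2 of the 162 pairs, and the share over all pairs was not counted. No overlap between strains was seen in 63 of the 162 pairs (38.9%), beside 41.7% of all pairs tested, and the median log2 fold change was 0.12 beside 0.02. The 162 pairs held 73.4% of the counts of these genes, whereas 345 of the 1169 pairs (29.5%) rested on 1 count in all.

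Smc3 (ENSMUSG00000024974.10, chr19:53600398-53645833, plus strand, 45.4 kb) encodes an ATPase arm of the cohesin ring. Its anchor, chr19:53593843-53610487 (16.6 kb), holds no start site of another protein-coding gene and had 2046 counts in 79 pairs. Smc3 had 154.4 and 166.0 CPM in B6 and 209.5 and 187.5 CPM in D2. Both D2 libraries were above both B6 libraries, and the log2 fold change of 0.24 ± 0.12 (SE) did not pass the threshold (edgeR adjusted p = 0.216). It was 0.18 without D2 replicate 1, and 0.08 when anchors within 2500 bp of a start site were added. The 150 bases before the RefSeq start of Smc3 hold 1 GC box and are shown because, after Ctcf, Stag1 and Smc3 had the largest ratios among the genes whose strains did not overlap.
Smc3 promoter, GRCm38.p6 chr19:53600246-53600395, plus strand: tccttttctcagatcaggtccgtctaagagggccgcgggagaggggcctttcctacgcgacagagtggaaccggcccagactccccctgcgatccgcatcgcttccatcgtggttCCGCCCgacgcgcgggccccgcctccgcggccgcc

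The strongest Smc3 partner was not its own body but an anchor 219.8 kb upstream (chr19:53366057-53398761) over start sites of Mxi1, a MYC antagonist, Smndc1, a splicing protein, and Gm10197. This pair had 49 and 56 counts in B6 and 87 and 75 in D2, without overlap, and a log2 fold change of 0.56 ± 0.25 (SE; adjusted p = 0.314 in edgeR). An anchor in Rbm20, a splicing regulator, 102.0 kb on the gene side had 26 and 52 counts in B6 and 55 and 62 in D2. An anchor inside Smc3, 26.4 kb away, had 45 and 29 counts in B6 and 43 and 44 in D2, so there the strains overlapped. The longest pair with at least 20 counts reached the start of Xpnpep1, an aminopeptidase, at 578.6 kb, with 16 and 17 counts in B6 and 22 and 18 in D2. By distance, the D2 to B6 ratio was 1.10 under 50 kb, with overlap, and 1.24, 1.35 and 1.24 in the 3 classes from 50 kb up, without overlap. Other pairs within 500 kb had a ratio of 1.02.

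Stag1 (ENSMUSG00000037286.15, chr9:100597798-100959375, plus strand, 361.6 kb), which encodes a cohesin subunit that contacts CTCF, had 2 anchors among its 14 start sites. The anchor at its first start site, chr9:100591211-100621268, had 105.6 and 108.5 CPM in B6 and 146.7 and 135.9 CPM in D2. The anchor at chr9:100637513-100649906, which holds 7 start sites, had 53.6 and 60.0 CPM in B6 and 86.7 and 65.6 CPM in D2. Neither overlapped between strains. Counting each pair once, Stag1 had 139.3 and 147.5 CPM in B6 and 197.3 and 172.2 CPM in D2, with a log2 fold change of 0.30 ± 0.12 (SE; adjusted p = 0.113 in edgeR). It was 0.21 without D2 replicate 1 and 0.11 when anchors within 2500 bp of a start site were added. With library totals alone as the scale, Stag1 passed the threshold (0.37, adjusted p = 0.0482 in edgeR, in a range of 0.0116 to 0.627 over all alternatives). The RefSeq start of Stag1 lies in the anchor with 7 start sites, and the 150 bases before it hold 2 GC boxes.
Stag1 promoter, GRCm38.p6 chr9:100643298-100643447, plus strand: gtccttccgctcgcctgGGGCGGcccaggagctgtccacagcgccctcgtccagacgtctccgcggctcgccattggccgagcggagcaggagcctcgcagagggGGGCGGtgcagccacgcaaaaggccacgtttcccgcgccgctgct

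The strongest pair of Stag1 joined its 2 start-site anchors, 37.5 kb apart, with 58 and 59 counts in B6 and 100 and 86 in D2. The log2 fold change was 0.60 ± 0.24 (SE; adjusted p = 0.238 in edgeR), and both D2 libraries were above both B6 libraries. Almost as strong was an intergenic anchor 24.7 kb upstream of the first Stag1 anchor (chr9:100577319-100585832), 6229 bp from the start of Slc35g2, with 72 and 45 counts in B6 and 96 and 89 in D2. The pair from the other Stag1 anchor to the same intergenic anchor, 62.1 kb, had the smallest p of the gene and was named after its value was seen: 8 and 13 counts in B6 and 29 and 21 in D2, a log2 fold change of 1.18 ± 0.41 (SE; adjusted p = 0.105 in edgeR).

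Farther away, the Stag1 start contacted the start of Pccb, a mitochondrial carboxylase subunit, across the gene at 435.2 kb, with 21 and 25 counts in B6 and 37 and 31 in D2. The longest pair with at least 20 counts of any of the 8 genes joined Stag1 to Pik3cb, a phosphoinositide 3-kinase, at 1463.8 kb, with 8 and 3 counts in B6 and 8 and 12 in D2. By distance, the D2 to B6 ratio was 1.54 under 50 kb, 1.15 from 50 to 200 kb, 1.20 from 200 to 500 kb and 1.16 at 500 kb or more, with overlap from 50 to 200 kb alone. The other pairs within 500 kb of Stag1 went the other way, with 183.3 and 197.1 CPM in B6 and 154.6 and 164.4 CPM in D2, a ratio of 0.839 beside 1.29 for the pairs of Stag1.

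**Figure D3:**
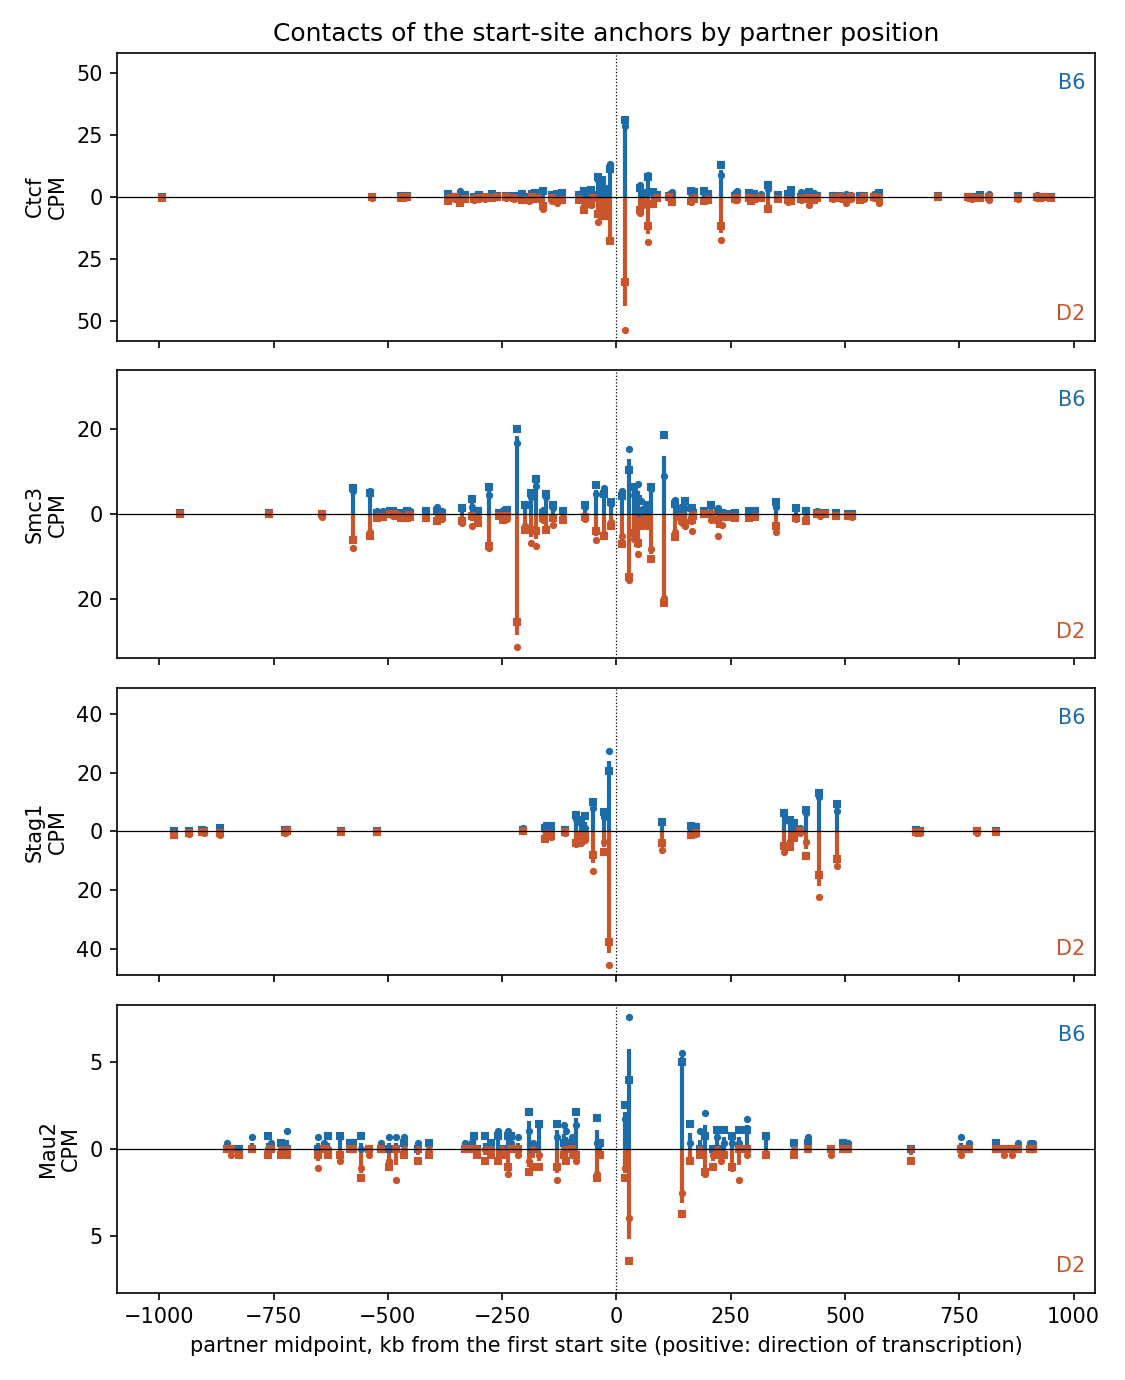
Contacts of the start-site anchors of Ctcf, Smc3, Stag1 and Mau2 with each partner anchor in CPM (vertical axis; B6 upwards in blue, D2 downwards in orange), by position of the partner from the first start site in kb; lines are strain means, circles replicate 1 and squares replicate 2, and pairs between 2 anchors of the same gene are left out. The tallest Ctcf line is the anchor in its own body, the tallest Smc3 line is the anchor at Mxi1 and Smndc1 upstream, and the Mau2 line at 142.7 kb is taller in B6.

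Rad21 (chr15:51962240-51991747, minus strand, 29.5 kb), which encodes the kleisin that closes the ring, had no anchor over either of its 2 start sites. The nearest anchor lay 20.5 kb downstream of a start site, inside the gene (chr15:51968219-51971037), and had 14 and 27 counts in B6 and 17 and 18 in D2 over 23 pairs. On the upstream side the nearest anchor (chr15:52025707-52029334) was intergenic, 34.0 kb from the start site and 10773 bp from that of Aard, with 9 and 12 counts in B6 and 2 and 8 in D2 over 13 pairs. The body of Rad21 overlapped 2 anchors in all. A gene without an anchor has no contact value here, which is no statement about its activity.

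Nipbl (ENSMUSG00000022141.7, chr15:8290617-8444463, minus strand, 153.8 kb) encodes the large subunit of the cohesin loader. Its anchor, chr15:8435114-8449141 (14.0 kb), had 705 counts in 65 pairs. Nipbl had 43.7 and 63.2 CPM in B6 and 84.9 and 56.4 CPM in D2: the strains overlapped, since D2 replicate 2 lay below B6 replicate 2. The log2 fold change was 0.33 ± 0.18 (SE; adjusted p = 0.237 in edgeR), and it was 0.03 without D2 replicate 1, 0.59 without D2 replicate 2, 0.07 without B6 replicate 1 and 0.63 without B6 replicate 2, so the value depends on which line of either strain is used. The region moved the same way: other pairs within 500 kb had 277.8 and 282.8 CPM in B6 and 373.9 and 357.0 CPM in D2, a ratio of 1.30 beside 1.32 for Nipbl.

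The strongest Nipbl partner lay in its own body, 17.1 kb away (chr15:8417130-8432883), with 31 and 42 counts in B6 and 55 and 38 in D2. A small intergenic anchor 9.49 kb away on the upstream side had 11 and 13 counts in B6 and 10 and 11 in D2. The highest D2 to B6 fold change among the tested pairs of all 8 genes was that of Nipbl with an intergenic anchor 388.4 kb upstream (chr15:8813841-8847245), whose nearest start site, 103077 bp off, is that of Slc1a3, a glutamate transporter. It had 4 and 6 counts in B6 and 21 and 13 in D2, and its log2 fold change of 1.68 ± 0.55 (SE) did not pass the threshold (edgeR adjusted p = 0.0584). With library totals alone it did pass (1.74), as it did with totals within distance classes (1.82), and its adjusted p ran from 0.0325 to 0.749 over the alternatives. The longest pair with at least 20 counts, 685.0 kb to the start sites of Skp2, a ubiquitin ligase subunit, and Lmbrd2, had 9 and 5 counts in B6 and 11 and 4 in D2. The share of Nipbl counts at 500 kb or more was 29.1% and 23.2% in B6 and 17.0% and 16.9% in D2. The level there overlapped between strains, with 12.7 and 14.6 CPM in B6 and 14.5 and 9.51 CPM in D2. From 50 to 200 kb and from 200 to 500 kb the D2 to B6 ratios were 1.63 and 1.79, without overlap, so the lower share in D2 went with more counts at shorter distances.

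Mau2 (ENSMUSG00000031858.16, chr8:70016123-70042734, minus strand, 26.6 kb), the partner of NIPBL in the loader, was the gene with the lowest D2 to B6 ratio, 0.780. Its anchor, chr8:70040465-70045533 (5.07 kb), also overlaps a start site of Sugp1, a splicing factor gene, and had 463 counts in 88 pairs. Mau2 had 49.5 and 41.4 CPM in B6 and 32.9 and 38.0 CPM in D2. Both D2 libraries were below both B6 libraries, and the log2 fold change of -0.43 ± 0.18 (SE) did not pass the threshold (edgeR adjusted p = 0.117). Here too the region moved the same way, with 1037.4 and 986.1 CPM in B6 and 761.6 and 742.1 CPM in D2 for the other pairs within 500 kb, a ratio of 0.743.

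Mau2 contacts went mainly to other promoters: 70.0% of its counts had a partner over a start site of another gene, a larger share than in 79.7% of genes with an anchor. The strongest pair was with its own gene body 28.8 kb away (chr8:70008705-70019702), with 22 and 11 counts in B6 and 11 and 19 in D2. Next was an anchor 143.0 kb away (chr8:69885824-69914151) over the start sites of Ndufa13 (a subunit of respiratory complex I), Cilp2, Tssk6 and Yjefn3, with 16 and 14 counts in B6 and 7 and 11 in D2. The 3 pairs with at least 20 counts all had a fold change below 0, but they held only 28.3% of the Mau2 counts, so most of its signal lay in pairs too thin to test. The ratio was 0.638 from 50 to 200 kb and 0.828 from 200 to 500 kb, without overlap, and 0.920 and 0.830 in the nearest and farthest classes, with overlap.

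**Figure D4:**
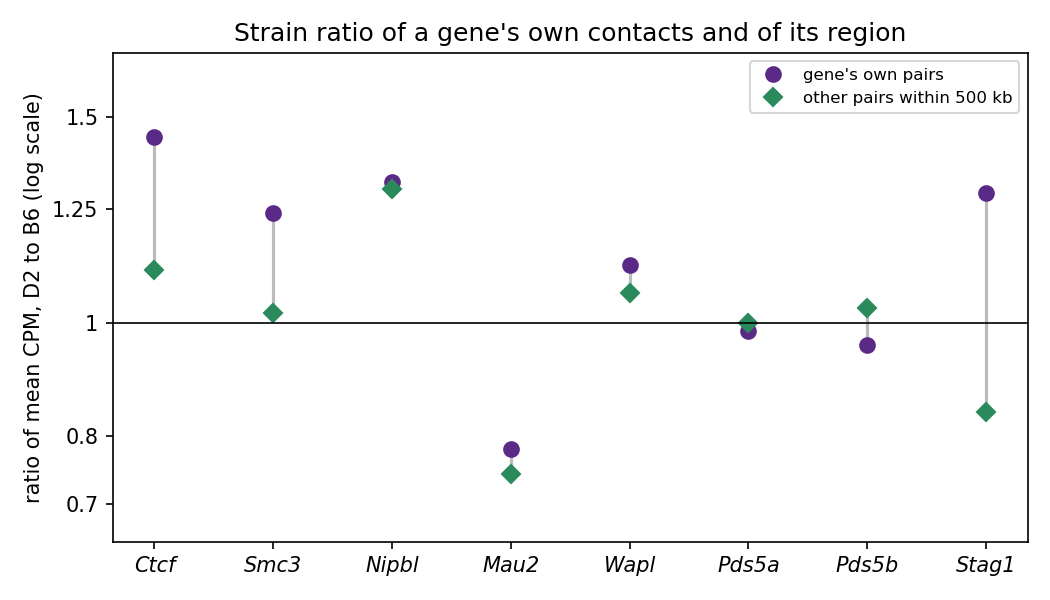
Ratio of mean CPM, D2 to B6 (vertical axis, log scale), for the pairs of each gene (purple circles) and for the other pairs within 500 kb that do not use its anchors (green diamonds). Nipbl and Mau2 lie next to their regions (1.32 and 1.30, 0.780 and 0.743), whereas Ctcf, Smc3 and Stag1 lie above theirs.

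Wapl (ENSMUSG00000041408.18, chr14:34673928-34747983, plus strand, 74.1 kb), the release factor, had 4 anchors that together cover 77.7 kb and 4857 counts in 167 pairs, more counts than 97.1% of genes. Wapl had 393.0 and 408.8 CPM in B6 and 447.3 and 452.1 CPM in D2. The D2 libraries were both higher, and the log2 fold change was 0.10 ± 0.12 (SE; adjusted p = 0.669 in edgeR). The anchors differed: the one over the first start site (chr14:34657615-34703238) had 252.4 and 262.8 CPM in B6 and 312.2 and 306.0 CPM in D2, whereas that at chr14:34720768-34726466 had 33.7 and 33.2 CPM in B6 and 30.0 and 32.6 CPM in D2. Other pairs within 500 kb had a ratio of 1.06.

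The strongest pair of any of the 8 genes was that of Wapl with an intergenic anchor 64.6 kb upstream (chr14:34606471-34625132), 6329 bp from the start of Opn4, the melanopsin gene, with 134 and 124 counts in B6 and 158 and 138 in D2. The first 2 Wapl anchors, 32.8 kb apart, had 88 and 91 counts in B6 and 140 and 136 in D2, with close agreement within each strain and a log2 fold change of 0.56 ± 0.23 (SE; adjusted p = 0.257 in edgeR). An anchor over the start sites of Mmrn2, Sncg (a synuclein) and Fam25c, 319.8 kb upstream, had 57 and 69 counts in B6 and 89 and 81 in D2. The longest pair with at least 20 counts, 419.7 kb to the body of Shld2, a DNA repair gene, ran the other way, with 17 and 17 counts in B6 and 7 and 15 in D2. Wapl contacts were the most one-sided of the 8 genes: 16.0% of its counts had a partner on the side of the gene body, leaving out pairs between its own anchors, beside 38.3% for Stag1 and 63.4% for Ctcf. Over all Wapl counts, pairs between its own anchors included, the share to start sites of other genes was 26.1%. It was the lowest of the 8 and lower than the median of all genes, 51.8%. Nipbl (30.5%) and Smc3 (31.3%) had 0 pairs between own anchors, so this order depends on how such pairs are counted.

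Pds5a (ENSMUSG00000029202.12, chr5:65605721-65698273, minus strand, 92.6 kb) had 3 anchors (62.5 kb in all) and 3809 counts in 368 pairs, more pairs than 99.4% of genes. Its level was nearly the same in the 4 libraries, 332.8 and 339.5 CPM in B6 and 329.1 and 332.5 CPM in D2, a log2 fold change of -0.09 ± 0.12 (SE; adjusted p = 0.687 in edgeR). Scaled by totals within distance classes the value was 0.00. The first anchor (chr5:65666824-65708268) and the one at the end of the gene (chr5:65603986-65620448), 75.3 kb apart, had 61 and 66 counts in B6 and 66 and 68 in D2. An intergenic anchor 39.2 kb upstream had 46 and 48 counts in B6 and 45 and 44 in D2, and an anchor in Ube2k, a ubiquitin-conjugating enzyme, 12.9 kb away had 48 and 32 in B6 and 33 and 48 in D2.

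Contacts of Pds5a were shorter in both D2 libraries. The median contact distance was 251.5 kb in both B6 libraries and 223.1 and 198.0 kb in D2. At 500 kb or more it had 75.0 and 78.9 CPM in B6 and 67.2 and 59.1 CPM in D2, a ratio of 0.821, whereas from 50 to 200 kb the ratio was 1.10. The longest pair with at least 20 counts, 872.9 kb to the start of Klf3, a Krüppel-like factor, had 7 and 11 counts in B6 and 5 and 2 in D2 (log2 fold change -1.40 ± 0.68, SE; adjusted p = 0.334 in edgeR). The pair with the smallest p, named after its value was seen, was with N4bp2, 76.6 kb away. It had 21 and 20 counts in B6 and 52 and 23 in D2, and thus rests on D2 replicate 1.

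Pds5b (ENSMUSG00000034021.15, chr5:150673739-150810690, plus strand, 137.0 kb) had 3 anchors and 515 counts in 161 pairs, of which 2 had at least 20 counts. It had 45.7 and 46.4 CPM in B6 and 44.4 and 43.8 CPM in D2, a log2 fold change of -0.13 ± 0.17 (SE; adjusted p = 0.693 in edgeR). The pair with its neighbour N4bp2l2, 13.3 kb upstream, had 16 and 12 counts in B6 and 15 and 12 in D2. The pair with the start of Brca2, the recombination gene, at 149.7 kb had 7 and 3 counts in B6 and 8 and 7 in D2. An intergenic anchor 6.84 kb from the anchor at the gene's end had 3 and 6 counts in B6 and 7 and 3 in D2, too few to test. Its contacts were also shorter in D2: at 500 kb or more it had 8.60 and 9.28 CPM in B6 and 5.78 and 5.09 CPM in D2, a ratio of 0.608, and from 50 to 200 kb the ratio was 1.23.

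Median contact distance was 67.2 kb in all 4 libraries for Ctcf and equalled the distance of the pair with Acd; it was longer than in 12.5% of genes. For Smc3 it was 155.3, 155.3, 163.3 and 155.3 kb, and for Wapl 89.5 to 90.1 kb, in neither case separating the strains. Nipbl (193.8 and 233.9 kb in B6, 257.5 and 203.5 kb in D2) and Mau2 (193.2 and 169.1 kb in B6, 228.6 and 182.2 kb in D2) overlapped as well. Pds5b had 149.7 kb in both B6 libraries and 111.6 and 111.7 kb in D2, and Stag1 had 98.2 and 115.3 kb in B6 and 85.7 and 90.5 kb in D2. With Pds5a, these were the 3 genes whose medians were shorter in both D2 libraries. The share of all genes that separate in this way was not counted, so the 3 genes are not set apart from other genes. Over all contacts of the 8 genes the median was 123.3 ± 0.975 kb in B6 and 113.5 ± 4.11 kb in D2 (SD, n = 2 each), a difference of -9.80 kb. Over all genes the median difference was -7.77 kb, and 61.1% of genes had a shorter median in D2. No test was run on distances, because 2 libraries against 2 leave an exact permutation test a smallest two-sided p of 0.333.

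The single-library files give a value per pair that was taken as the authors' q-value for a contact above background. Under 0.01 in all 4 libraries were 8 pairs of Ctcf, which held 51.9% of its counts, 12 of Smc3 (52.3%), 5 of Nipbl (44.0%), 24 of Wapl (69.6%), 36 of Pds5a (56.2%) and 18 of Stag1 (67.9%). Mau2 and Pds5b had 0 such pairs, with 18 and 9 pairs under 0.01 in at least 1 library. Pairs under 0.01 in both libraries of 1 strain and neither of the other numbered 17 for D2 and 14 for B6 over the 8 genes. The share of all pairs with this pattern was not counted, so these numbers have no background and are not read as contacts of 1 strain. By gene, the counts for D2 and B6 were 5 and 1 for Ctcf, 0 and 3 for Smc3, 1 and 0 for Stag1, 0 and 1 for Nipbl, 0 and 2 for Mau2, 5 and 0 for Wapl, 6 and 7 for Pds5a, and 0 and 0 for Pds5b.

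Of 32 further genes listed from the same pathways, 24 were tested, 4 lie on the X chromosome and were not analysed here, and 4 had no anchor over a start site. None passed the threshold as higher in D2 and 2 passed as lower, beside 9.76% of all genes tested that passed as lower, and the median log2 fold change was 0.06 over the 24. The 8 other cohesin genes tested, among them Esco1 and Esco2 (acetyltransferases of SMC3), Cdca5 (sororin) and Espl1 (separase), gave 0 calls and a median of -0.00. The 6 other looping factors tested gave 0 calls and a median of 0.07; among them Zfp143, a zinc finger factor of promoters, had 230.4 and 220.3 CPM in B6 and 321.5 and 278.2 CPM in D2 (log2 fold change 0.34 ± 0.12, SE; adjusted p = 0.0503 in edgeR), and it passed the threshold as higher in D2 in 7 of 13 alternatives, with adjusted p-values from 0.00112 to 0.434 over all of them. Both calls were among the 10 genes of condensin and the SMC5/6 complex.

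Smc5, which encodes an SMC protein of DNA repair, had 18.2 and 26.8 CPM in B6 and 10.8 and 6.79 CPM in D2. Both D2 libraries were lower, with a log2 fold change of -1.42 ± 0.29 (SE; adjusted p = 3.65e-04 in edgeR), and the call held in every alternative run. Ncaph, the kleisin of condensin, whose anchor also holds a start site of Itpripl1, had 128.3 and 114.3 CPM in B6 and 94.7 and 89.3 CPM in D2. The change on the log2 scale was -0.47 ± 0.13 (SE; adjusted p = 0.0133 in edgeR), and the call was lost under DESeq2, without either B6 library and with start sites of protein-coding transcripts alone, with adjusted p-values up to 0.281 over all alternatives.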

How the data were processed

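Raw read-pair counts per pair of anchors were deposited by the authors for 4 libraries, with no normalization and 1 column per library, and were used as deposited. Per the submitters' processing notes, HiC-Pro 2.11.4, DESeq2 and the build mm10 were used; the loop caller and its settings are not given in the sources used here. Each deposited single-library file holds an unlabelled value from 0 to 1 per pair, which was taken as the authors' q-value. mm10, the build named for both strains, derives from C57BL/6J; what this does to D2 counts was not tested. All anchors start and end at GATC in GRCm38.p6, so coordinates were used as deposited. Promoter sequences are from RefSeq (GRCm38.p6), which matched 7 of the 9 genes; the start-site matches are from the genome of that build.

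A gene's count is the sum over pairs with an anchor over 1 of its GENCODE M21 start sites, each pair once. CPM is the count over the library total. Genes and pairs with at least 20 counts were fitted over the whole table with edgeR 4.0.16 (limma 3.58.1, R 4.3.3): TMM, quasi-likelihood F test, strain as the only term, Benjamini-Hochberg, threshold 0.05, log2 fold change D2 over B6, SE from the fitted dispersion. The test was checked on simulated data. Alternatives were DESeq2 1.42.0, library totals alone, totals within distance classes or chromosomes, other count minimums, other start-site rules, a replicate block and leaving out each library. Each gene's 3 strongest pairs, its longest with at least 20 counts, and every pair or pathway gene past the threshold are named; the pair with the smallest p was added after its value was seen, as was Zfp143. The genes and lists were chosen with earlier results of these data known.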

Additional observations from a re-analysis of the deposited data

How the results depend on the processing

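Of the 8 genes, 1 was called as reported. With library totals alone 2 were called (Ctcf, Stag1), beside 14.1% of all genes tested. Totals within chromosomes gave 2 (Ctcf, Smc3), beside 14.6%. DESeq2 called 0 of the 8, beside 5.53%. Leaving out 1 library keeps 1 library in a strain, and it changed which of the 8 genes were called. Without D2 replicate 1 the log2 fold change was 0.27 for Ctcf, 0.18 for Smc3 and 0.21 for Stag1. Without D2 replicate 2 it was 0.62, 0.30 and 0.38 for the same genes. Wapl went the other way, with 0.12 and 0.07. Calls among the pairs of the 8 genes went from 0 to 1 with totals alone or within distance classes, the Nipbl pair near Slc1a3. The shares over all pairs tested were 1.43% and 1.37%. Leaving out 1 library also changed the calls among these pairs. The 2 calls among other pathway genes became 1 with DESeq2 or protein-coding transcripts alone, 1 to 5 leaving out 1 library, and 3, with Zfp143 added as higher in D2, with totals alone, within distance classes or chromosomes, at least 50 counts, anchors within 2500 bp or the replicate block. The distance difference of -9.80 kb was -3.61 kb over pairs with at least 2 counts in a library, and -12.7 to -6.89 kb leaving out 1 library. Nipbl was 0.03 to 0.63 and Mau2 -0.55 to -0.30 on the log2 scale leaving out 1 library.

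Signs turned for 6 values, none of them past the threshold: Pds5a in total (0.00 within distance classes), its pair of own anchors (-0.06 with at least 50 counts; -0.07 to 0.09 leaving out 1 library, with -0.01 without D2 replicate 1), and, leaving out 1 library, the strongest pairs of Nipbl (-0.05 to 0.56), Mau2 (-0.61 to 0.35, with 0.10 without D2 replicate 1), Wapl (-0.01 to 0.26) and Pds5b (-0.33 to 0.07). The causes were not tested.

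Replicate numbers were not taken to pair the lines, which share only a number: deviations of same-numbered libraries correlated at r = 0.03 over 13826 genes. With the replicate number as a block, 1 of the 8 genes, 0 of their pairs and 3 pathway genes were called. The shares over all features tested were 14.6% of genes and 1.24% of pairs. Over all genes, 1832 calls became 765 with DESeq2, 3276 without D2 replicate 2, 775 without B6 replicate 1 and 829 without B6 replicate 2. For all pairs, 1565 became 81, 2029, 325 and 353, 584 without D2 replicate 1, and 759 with no count minimum. The share of gene calls higher in D2 was 26.4% as reported and 44.5%, 42.0% and 47.2% with totals alone, within distance classes and within chromosomes. Of the 162 pairs tested, 73 had at least 50 counts over 4 libraries.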
